A study of Homo sapiens with 6 samples.

Results

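A set of 10 Notch pathway genes was followed in A375, a human melanoma cell line, among the 58302 gene identifiers counted: the receptors NOTCH1, NOTCH2 and NOTCH3, the ligands JAG1 and JAG2, the DNA-binding partner RBPJ, and the targets HES1, HES4, HEY1 and NRARP. They were chosen by name for their place in the pathway, by a rule that uses no measured value, though with earlier results of these data known, and all 10 had an identifier and passed the filter on low counts. The study compared 3 libraries of cells stably carrying an empty vector with 3 libraries of cells stably overexpressing HMGB2, a chromatin protein that bends DNA, to ask which genes follow HMGB2. Both lines are A375 cells, and the overexpression line was made by lentiviral transduction. The promoter of the HMGB2 construct was not given in the sources used here. Libraries were made from polyadenylated RNA, and the study's reporting form calls the 3 replicates technical, so the p-values measure the spread between samples of a line and not between separate transductions. In bulk RNA, fewer cells expressing a gene and less RNA per cell cannot be told apart.

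Notch receptors are cut when a ligand on a neighbouring cell binds them, and the freed intracellular domain enters the nucleus, where it joins RBPJ on DNA and turns target genes on. Without the receptor domain, RBPJ recruits co-repressors to the same sites. In the melanocyte lineage, Notch signalling is known for keeping melanocyte stem cells and their precursors, and its components are studied in melanoma for their part in growth and invasion.

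Between 45925053 and 56755212 reads were assigned to genes in each library. HMGB2 was higher in all 3 overexpression libraries, with normalized counts (counts divided by the DESeq2 size factor of the library) of 7250, 7729 and 7562 with the empty vector and 15090, 16850 and 14610 with overexpression (log2 fold change 1.05, SE 0.10, DESeq2 adjusted p = 4.4e-22). Of the melanoma markers, S100B lay between 3346 and 3841, MITF between 1381 and 1719, AXL between 16600 and 32520 and SOX9 between 149 and 249 normalized counts. The pigment genes MLANA (3.38 to 10.8), TYR (0 to 0.985) and DCT (0 to 5.63) were low. PMEL lay between 49.6 and 67.0 in the column counting either strand, but its stranded columns held 1529 to 2017 reads. Its count in the column used therefore does not give its level. SOX10 was listed at 0 in the column counting either strand, while its stranded columns held 28863 to 56464 reads. Of the markers of other cells, PTPRC was at 0 in every library, ALB reached 0.985, PECAM1 lay between 25.7 and 55.4 and EPCAM between 212 and 372. Multimapped reads made up 10.6% of overexpression replicate 3 and between 2.58% and 4.89% of the other libraries.

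The sequences just before the start sites are shown for the genes whose levels moved and for those that hold the RBPJ core motif. The motif searched was TGGGAA on either strand (TTCCCA on the other), with its longer form GTGGGAA, which contains it. Of 35116 windows of 250 bases upstream of annotated start sites, 20.9% held the core and 5.43% the longer form. Sequences are from RefSeq on GRCh38.p14, 5′ to 3′ on the strand of the gene, with matches to the core in capitals. The ligand that fell, JAG1 (chr20:10674000-10674249, minus strand), and the ligand that rose, JAG2 (chr14:105168825-105169026, minus strand, without the bases that overlap annotated exons), held no match in their windows.
JAG1: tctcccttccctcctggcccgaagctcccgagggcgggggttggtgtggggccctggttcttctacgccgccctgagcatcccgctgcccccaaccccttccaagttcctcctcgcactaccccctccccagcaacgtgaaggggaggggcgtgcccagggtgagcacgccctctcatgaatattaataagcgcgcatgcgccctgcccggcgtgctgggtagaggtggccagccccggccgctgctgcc
JAG2: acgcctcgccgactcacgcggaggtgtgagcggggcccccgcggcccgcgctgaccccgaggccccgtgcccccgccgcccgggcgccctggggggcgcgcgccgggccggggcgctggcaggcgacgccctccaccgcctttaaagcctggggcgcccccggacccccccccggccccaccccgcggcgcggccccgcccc
HES1 (chr3:194135898-194136147, plus strand) held 2 core matches, 1 of them in the longer form.
HES1: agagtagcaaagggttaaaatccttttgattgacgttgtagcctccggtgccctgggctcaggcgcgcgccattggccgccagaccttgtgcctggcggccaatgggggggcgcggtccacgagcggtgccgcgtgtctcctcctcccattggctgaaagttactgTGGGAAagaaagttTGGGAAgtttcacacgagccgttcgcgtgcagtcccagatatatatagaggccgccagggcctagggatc
HES4 held 1 match, also in the longer form, shown with the bases around it (chr1:1000156-1000185, minus strand).
HES4: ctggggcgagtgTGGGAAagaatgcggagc
RBPJ has 5 start sites in the table, and 1 of their windows held 2 matches, both in the longer form (chr4:26319619-26319648 and chr4:26319662-26319691, plus strand).
RBPJ first match: ggtttaggaaatTTCCCAcggccgtgttgt
RBPJ second match: agtggaaggcggTGGGAAggaggtgtagcg
The matches of HES4 and RBPJ lie in or across the edge of exons that GENCODE annotates within these windows. The windows of NOTCH1, NOTCH2, NOTCH3 and NRARP held no match, and HEY1 was not searched here. A match describes letters in the window and is not evidence of binding.

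Of the 10 genes, JAG2 rose, JAG1 fell, and 8 did not pass the test. The threshold was an adjusted p (Benjamini-Hochberg, over all genes tested) under 0.05, and by this rule 4.94% of 18836 genes were called, 2.29% higher and 2.64% lower with HMGB2 overexpression. The groups did not overlap for 5 of the 10 genes (JAG1, JAG2, RBPJ, HES4 and HEY1), against 22.8% of the 16692 genes whose normalized count averaged at least 10. The median log2 fold change of the 10 genes was -0.01, with a range from -0.95 to 0.85, and that of all tested genes was 0.003 (quartiles -0.18 and 0.17). The plot of normalized counts by library shows each gene.

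**Figure D1:**
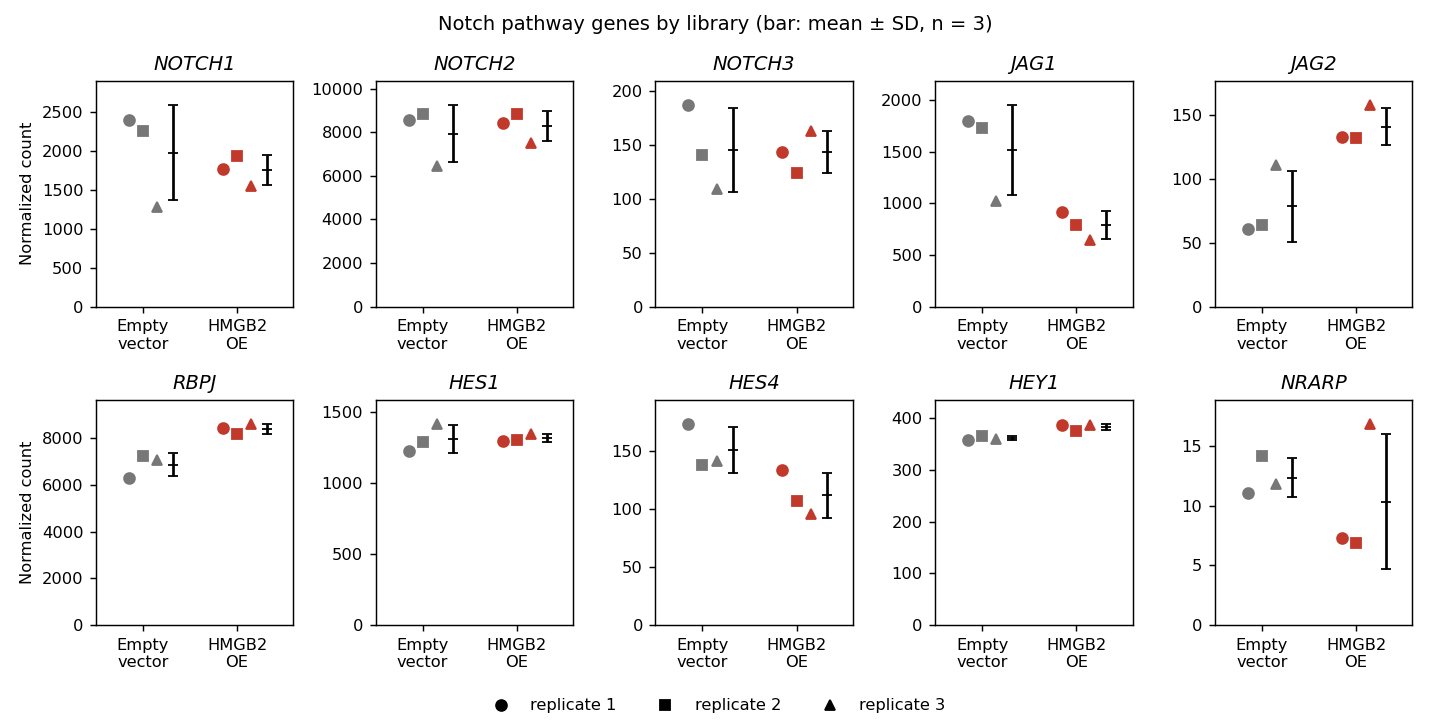
Normalized counts (vertical axes, each from 0) of the 10 Notch pathway genes in the 3 empty vector libraries (grey) and the 3 HMGB2 overexpression libraries (red), with the mean ± SD of each group beside the points. JAG1 lay between 1017 and 1799 with the empty vector and between 648 and 918 with overexpression, while JAG2 lay between 60.6 and 110.5 and between 132.0 and 157.6.

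JAG1 and JAG2 are transmembrane ligands of the Jagged type, presented to receptors on neighbouring cells. JAG1 (ENSG00000101384, hg38 chromosome 20, 10637684 to 10673999, minus strand) had normalized counts of 1799, 1730 and 1017 with the empty vector and 918, 788 and 648 with overexpression. Every overexpression library lay below every empty vector library, and empty vector replicate 3 lay nearest to them. The log2 fold change was -0.95 (SE 0.22, 95% interval -1.38 to -0.52, DESeq2 adjusted p = 0.000778). The call held in 13 of 14 alternatives, with a log2 fold change between -1.17 and -0.81, and was lost with the quasi-likelihood test of edgeR (adjusted p = 0.0596). The gene overlaps ENSG00000270792, which holds all of the 2.73% of its 50-base words found in another gene, and the column counting either strand kept between 92.0% and 95.5% of its reads.

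JAG2 (ENSG00000184916, hg38 chromosome 14, 105140982 to 105168824, minus strand) had normalized counts of 60.6, 63.8 and 110.5 with the empty vector and 132.6, 132.0 and 157.6 with overexpression. The groups did not overlap, and empty vector replicate 3 was again the one nearest to the other group. The log2 fold change was 0.85 (SE 0.27, 95% interval 0.31 to 1.39, DESeq2 adjusted p = 0.0416). This call held in 7 of 14 alternatives. It was lost with edgeR (adjusted p = 0.113), without the independent filter of DESeq2 (0.0724), and without any 1 library other than empty vector replicate 3: the DESeq2 adjusted p was 0.42 and 0.331 without empty vector replicates 1 and 2, and 0.193, 0.178 and 0.348 without overexpression replicates 1, 2 and 3. Without empty vector replicate 3 it was 0.000245. Of the 50-base words of JAG2, 6.53% also occur in the overlapping gene ENSG00000257622, and reads from there may not have been assigned.

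Set against each other per kilobase of exon, JAG1 made up 95.3%, 94.9% and 86.4% of the summed level of both ligands with the empty vector and 82.7%, 80.4% and 73.9% with overexpression. The share was lower in every overexpression library, 79.0 ± 4.55% against 92.2 ± 5.06% (SD, n = 3 each), a difference of -13.2 percentage points (exact two-sided permutation p = 0.1, the smallest that 3 libraries against 3 allow). JAG1 remained the more abundant of the pair per length in all 6 libraries.

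NOTCH1, NOTCH2 and NOTCH3 are the receptors, single-pass proteins that are cut in turn by an ADAM protease and by gamma-secretase. None of them passed the test, and none had an unadjusted p under 0.05, with DESeq2. NOTCH1 (ENSG00000148400, hg38 chromosome 9, 136494433 to 136546048, minus strand) had normalized counts of 2397, 2264 and 1277 with the empty vector and 1764, 1941 and 1554 with overexpression. Empty vector replicate 3 lay below all other libraries and the other empty vector libraries above them, so the groups overlapped (log2 fold change -0.18, SE 0.21, DESeq2 adjusted p = 0.825). Without that library the log2 fold change was -0.41 and the gene was called (DESeq2 adjusted p = 0.0036), while it was -0.02 without empty vector replicate 1, -0.07 without empty vector replicate 2 and -0.10 without overexpression replicate 3, with no call. With replicates 1 and 2 of each group alone it was called (log2 fold change -0.33, DESeq2 adjusted p = 0.00292).

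NOTCH2 (ENSG00000134250, hg38 chromosome 1, 119911553 to 120100779, minus strand) had normalized counts of 8546, 8816 and 6438 with the empty vector and 8440, 8849 and 7515 with overexpression. The third replicate was the lowest of each group, and the groups overlapped (log2 fold change 0.06, SE 0.14, 95% interval -0.22 to 0.34, DESeq2 adjusted p = 0.928). Of its 50-base words, 8.69% also occur in other genes, chiefly the NOTCH2NL copies, so reads from those parts may not have been assigned. NOTCH3 (ENSG00000074181, hg38 chromosome 19, 15159038 to 15200995, minus strand) had normalized counts of 187, 141 and 110 with the empty vector and 144, 124 and 163 with overexpression, and its groups overlapped (log2 fold change -0.02, SE 0.24, 95% interval -0.50 to 0.45, DESeq2 adjusted p = 0.988).

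NOTCH2 was the main receptor transcript per kilobase of exon. It made up 73.6 ± 3.29% of the summed level of the 3 receptors with the empty vector and 76.1 ± 0.252% with overexpression (SD, n = 3 each, exact permutation p = 0.4). NOTCH1 made up 24.0 ± 3.15% and 21.5 ± 0.636% (exact permutation p = 0.4), and NOTCH3 2.39 ± 0.343% and 2.38 ± 0.526% (exact permutation p = 1). With all 6 libraries these differences were no larger than the spread between them. The differences rested on single libraries: without empty vector replicate 3 they were -4.24 percentage points for NOTCH1 and 4.27 for NOTCH2, with no overlap between groups (exact permutation p = 0.2 each, the smallest that 2 libraries against 3 allow), and without empty vector replicate 1 they were -1.21 and 1.04 (exact permutation p = 0.8 each).

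RBPJ (ENSG00000168214, hg38 chromosome 4, 26163455 to 26435131, plus strand) encodes the protein through which all 4 receptors reach DNA. Its normalized counts were 6297, 7244 and 7043 with the empty vector and 8428, 8155 and 8592 with overexpression. All overexpression libraries were above all those of the empty vector, but the test was not passed (log2 fold change 0.29, SE 0.10, 95% interval 0.09 to 0.49, DESeq2 adjusted p = 0.0661). RBPJ was called in 4 of 14 alternatives, among them without empty vector replicate 3 (DESeq2 adjusted p = 0.00729), with replicates 1 and 2 of each group alone (0.00142) and with a term for the third replicates (0.000314). Without any 1 of the other 5 libraries the adjusted p lay between 0.194 and 0.683, and with edgeR it was 0.132.

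HES1, HES4 and HEY1 encode basic helix-loop-helix repressors that the receptor domain and RBPJ switch on, and NRARP encodes a small ankyrin-repeat protein that feeds back on the receptor complex. None of these 4 targets was called in any of the alternatives that gave them an adjusted p, and in the DESeq2 fit of all 6 libraries none had an unadjusted p under 0.05 (HES4 stood nearest, at 0.0535). HES1 (ENSG00000114315, hg38 chromosome 3, 194136148 to 194138732, plus strand) had normalized counts of 1225, 1291 and 1418 with the empty vector and 1297, 1305 and 1346 with overexpression. The overexpression libraries lay inside the range of the empty vector libraries (log2 fold change 0.01, SE 0.11, 95% interval -0.21 to 0.22, DESeq2 adjusted p = 0.994).

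HES4 (ENSG00000188290, hg38 chromosome 1, 998962 to 1000172, minus strand) had normalized counts of 174, 138 and 142 with the empty vector and 134, 107 and 95.7 with overexpression. All overexpression libraries lay below the empty vector libraries, by a narrow gap (log2 fold change -0.43, SE 0.22, 95% interval -0.86 to 0.01, DESeq2 adjusted p = 0.362). HEY1 (ENSG00000164683, hg38 chromosome 8, 79762371 to 79767857, minus strand) had normalized counts of 358, 366 and 361 with the empty vector and 386, 375 and 387 with overexpression. These groups did not overlap either, but lay close together (log2 fold change 0.08, SE 0.13, 95% interval -0.17 to 0.34, DESeq2 adjusted p = 0.878). NRARP (ENSG00000198435, hg38 chromosome 9, 137299631 to 137302271, minus strand) was the least abundant of the 10 genes, with normalized counts of 11.1, 14.2 and 11.8 with the empty vector and 7.27, 6.90 and 16.9 with overexpression. Overexpression replicate 3 was the highest of all 6 libraries and the other overexpression libraries the lowest (log2 fold change -0.28, SE 0.63, 95% interval -1.51 to 0.96, DESeq2 adjusted p = 0.921), so a change of this gene was not resolved at this depth.

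**Figure D2:**
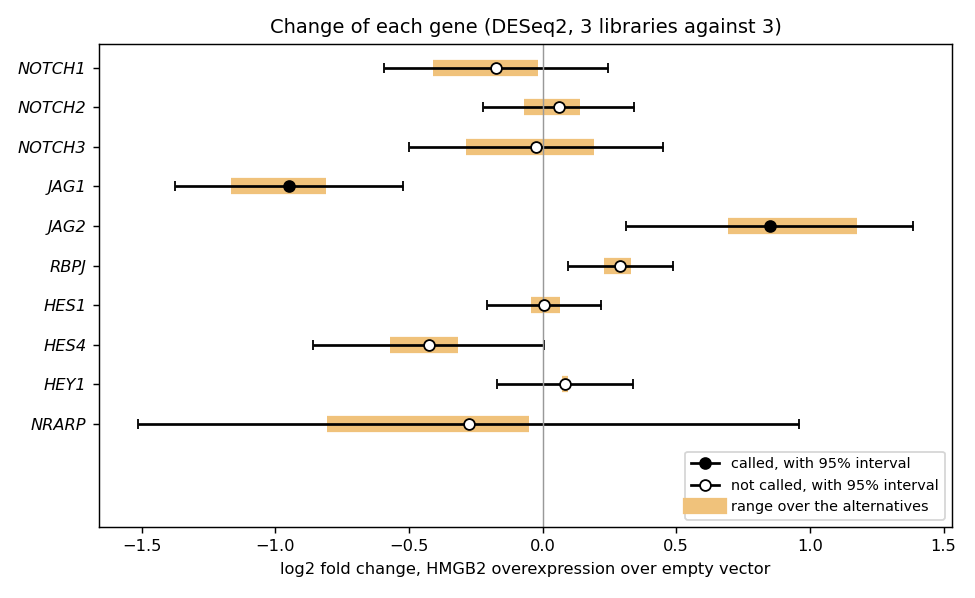
Log2 fold change of HMGB2 overexpression over empty vector (horizontal axis) for each of the 10 genes, with its 95% interval (line) and the range of the estimate over the 14 alternatives (orange). Filled points are genes called by DESeq2, JAG1 at -0.95 and JAG2 at 0.85, and the interval of RBPJ (0.09 to 0.49) lies above 0 although the gene was not called.

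Per kilobase of exon, the levels with the empty vector ran from HES1 (637 ± 47.5 normalized counts per kilobase, SD, n = 3) through NOTCH2 (474 ± 77.8), RBPJ (448 ± 32.6), JAG1 (163 ± 46.5), NOTCH1 (158 ± 48.8), HES4 (135 ± 17.5), HEY1 (65.9 ± 0.760), NOTCH3 (15.5 ± 4.14) and JAG2 (12.2 ± 4.37) to NRARP (4.68 ± 0.608). With the empty vector, the ranges of NOTCH2 and RBPJ overlapped, as did those of JAG1, NOTCH1 and HES4 and those of NOTCH3 and JAG2. The ranges alone therefore do not order these neighbours, and their levels were not compared within each library here. With overexpression RBPJ (548 ± 14.4) came before NOTCH2 (494 ± 40.8), with no overlap, JAG1 (84.4 ± 14.5) came after HES4 (100.3 ± 17.3), with overlapping libraries, and JAG2 (22.0 ± 2.28) came before NOTCH3 (15.3 ± 2.08), with no overlap. The order depends on the length used: with the longest transcript in place of all exons, the empty vector level of RBPJ was 1191 and that of JAG1 255 per kilobase.

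**Figure D3:**
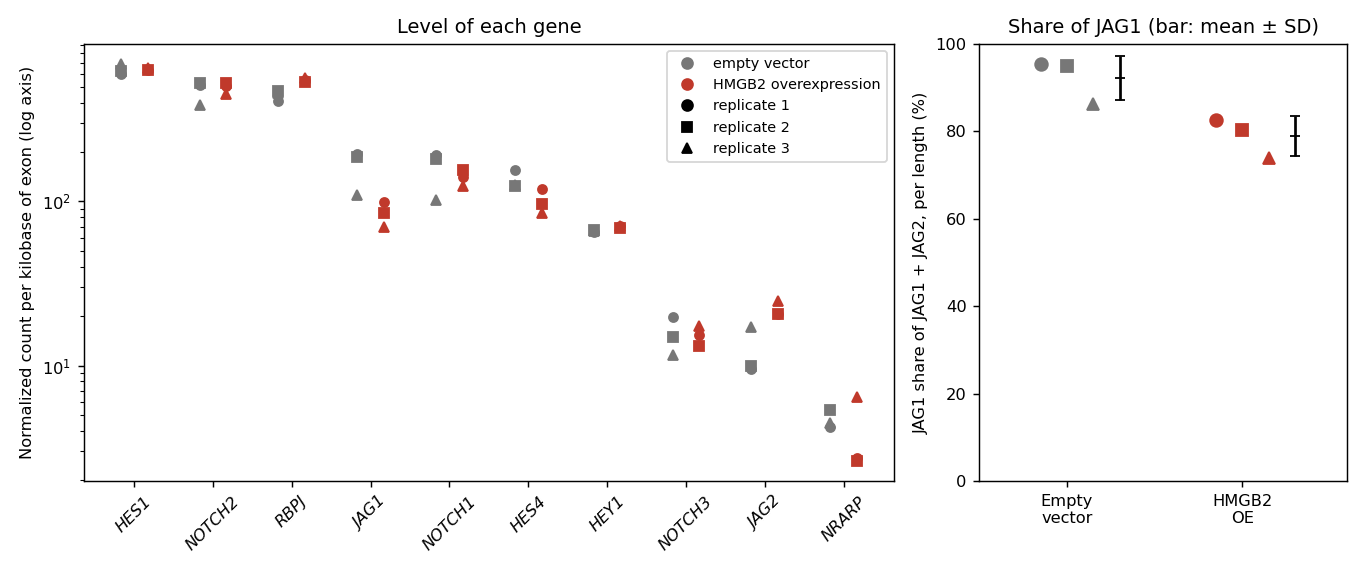
Left, normalized counts per kilobase of exon (log axis) of the 10 genes in each library, ordered by the empty vector mean. Right, the share of JAG1 in the summed level of JAG1 and JAG2 per length in each library, with mean ± SD, from 92.2% with the empty vector to 79.0% with overexpression.

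A wider list of 81 pathway genes was read in the same fit, of which 78 had an identifier. NOTCH2NLB, NOTCH2NLC and NOTCH2NLR had none, and DLK1, MFAP5, HES3, HES5 and HEYL received no adjusted p. Of the 78 genes, 4 rose (JAG2, DNER, CNTN1 and HES2), 1 fell (JAG1) and 68 were tested without a call, beside 2.29% higher and 2.64% lower among all genes tested. The median log2 fold change of the list was -0.06, against 0.003 over all tested genes.

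DNER and CNTN1, neuronal membrane proteins described as atypical Notch ligands, both rose. DNER had normalized counts of 45.5, 40.8 and 65.5 with the empty vector and 112.6, 87.7 and 94.5 with overexpression (log2 fold change 0.97, SE 0.28, DESeq2 adjusted p = 0.0172). CNTN1 had 253, 272 and 264 with the empty vector and 385, 381 and 351 with overexpression (log2 fold change 0.50, SE 0.14, DESeq2 adjusted p = 0.0119). Both genes had no overlap between groups. HES2, a relative of HES1, had normalized counts of 87.9, 109 and 110.5 with the empty vector and 143, 167 and 185 with overexpression, again with no overlap (log2 fold change 0.68, SE 0.21, DESeq2 adjusted p = 0.0309). With edgeR the adjusted p was 0.0446 for CNTN1, 0.0636 for DNER and 0.0697 for HES2. The HES2 call was also lost without the independent filter (DESeq2 adjusted p = 0.0537) and with replicates 1 and 2 alone (0.0978). DNER and CNTN1 kept their calls in both of those settings. Each of these 3 calls was lost without any 1 library other than empty vector replicate 3, with DESeq2 adjusted p from 0.101 (overexpression replicate 2) to 0.309 (overexpression replicate 1) for DNER, from 0.0931 (overexpression replicate 3) to 0.28 (overexpression replicate 1) for CNTN1, and from 0.104 (overexpression replicate 1) to 0.406 (empty vector replicate 1) for HES2.

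None of the genes acting between ligand and target was called by DESeq2 or edgeR. Over all genes tested, 14.3% had an unadjusted DESeq2 p under 0.05. Among these roles it was 1 of 4 genes of ligand ubiquitination, 2 of 5 of receptor glycosylation, 1 of 9 of receptor cleavage, 1 of 10 of the nuclear complex (RBPJ), 2 of 12 co-repressors and 1 of 11 genes of receptor turnover. The gene with the largest change of each role, in either direction, was NEURL1B at 0.62 among the ubiquitin ligases of ligands, MFNG at -0.73 among the glycosyltransferases, APH1B, a gamma-secretase subunit, at 0.33, RBPJL, the paralogue of RBPJ, at -0.92, TLE3, a Groucho-type co-repressor, at -0.48 and DTX2, a Deltex protein, at -0.32 (log2 fold changes). Their DESeq2 adjusted p ranged from 0.134 for TLE3 to 0.493 for RBPJL. RBPJL and MFNG had few reads (8 to 28 and 14 to 43 per library), and RBPJL stood at -0.72 with the stranded columns summed. With a term for the third replicates TLE3 (0.000278), DTX2 (0.0217) and APH1B (0.0495) were called, and likewise without empty vector replicate 3 (5.89e-07, 0.0371 and 0.0466, DESeq2 adjusted p). Of the remaining receptors and ligands, NOTCH4 stood at 0.09, NOTCH2NLA at -0.11 and DLL4 at 0.61, with adjusted p of 0.965, 0.943 and 0.575.

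**Figure D4:**
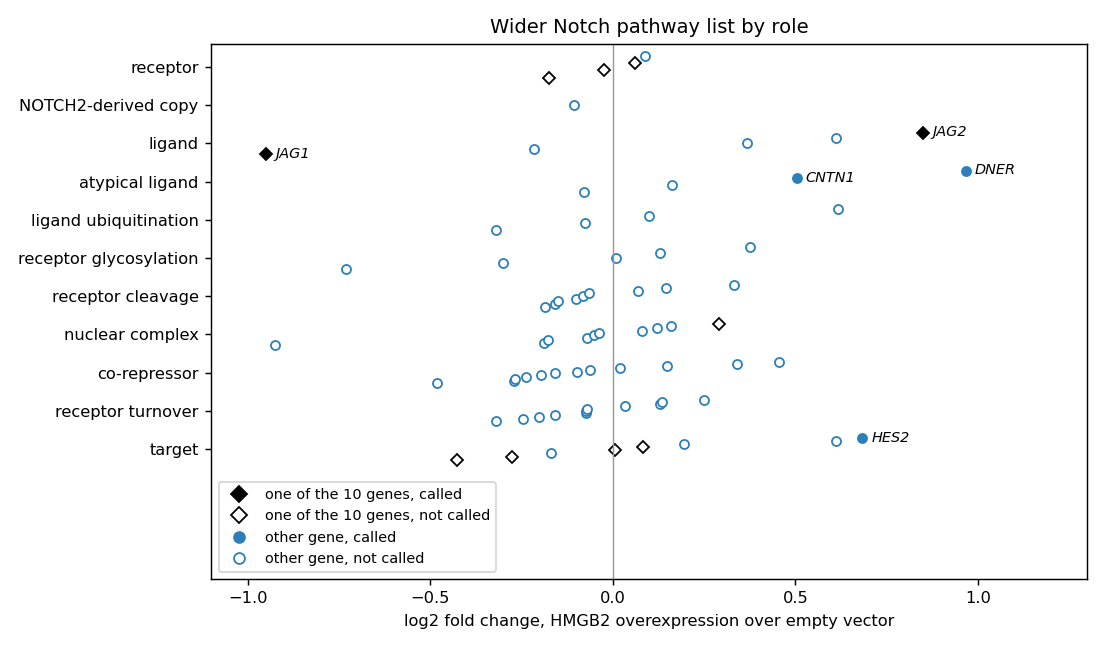
Log2 fold change of HMGB2 overexpression over empty vector (horizontal axis) for the 73 genes of the wider Notch list with an adjusted p, in rows by role. Diamonds are the 10 genes described here and circles the others, filled where called: JAG1 at -0.95, JAG2 at 0.85, DNER at 0.97, CNTN1 at 0.50 and HES2 at 0.68.

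Empty vector replicate 3 was the lowest of the 6 libraries for 27 of the 72 list genes averaging at least 10 normalized counts (37.5%), against 23.7% of all such genes, and for 3 of the 10 genes followed here (NOTCH1, NOTCH2 and NOTCH3). Empty vector replicate 1 was the lowest library for 4 of the 10 genes and the highest for 4. Overexpression replicate 3 was the lowest for 2 of them and the highest for 4. Deviations from the group means, taken across all genes, ran together in the third replicates of both groups (correlation 0.349). Those of overexpression replicate 3 and empty vector replicates 1 and 2 ran against each other (-0.272 and -0.217). Deviations within a group cancel, so these negative values follow in part from the positive one and are not a separate observation. The labels name no batch, and what sets the third replicates apart was not tested.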

How the data were processed

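RNA of 6 A375 libraries was sequenced. Per the labels, the authors used bcl2fastq 2.20, FastQC, Trimmomatic and STAR on GRCh38. The aligner version and annotation release were not given in the sources used here. The deposited values are raw read counts per gene, not normalized, in which a read is counted when it maps to 1 place and 1 gene. The column counting either strand was used. It sets aside reads where genes on opposite strands overlap (10.7% to 11.4% of reads were ambiguous). Groups came from the genotype labels. Symbols and coordinates were taken from GENCODE 44, which matched 57532 of 58302 identifiers. The rest held 0.0575% of counts.

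The test was that of DESeq2 1.42.0 under R 4.3.3 (Wald test, group alone, default parameters, after the study's methods). Log2 fold changes are unshrunken, p-values were adjusted over all genes (Benjamini-Hochberg) and intervals are the estimate ± 1.96 SE. Shares were tested with exact two-sided permutation (scipy 1.17.1). The code was tested on simulated data. Between 45925053 and 56755212 reads per library were assigned, so counting error is small except for low genes such as NRARP. The 14 alternatives were edgeR 4.0.16, TMM factors, a filter of 10 counts in 3 libraries, no independent filter, the stranded columns summed, the replicate number in the model, a term for the third replicates, replicates 1 and 2 alone, and leaving out each library.

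The genes and lists were chosen with earlier results of these data known. Named genes were the 10 genes, HMGB2, every other called gene of the wider list and, in each role, the largest absolute log2 fold change among genes averaging at least 10 normalized counts.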

Additional observations from a re-analysis of the deposited data

Results flagged for a closer look

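For 2 genes of the wider list with at least 600 reads in the stranded columns, under 50% of those reads were in the column used here. Both overlap a gene on the other strand. Other genes of the list kept a larger share. PSENEN, a gamma-secretase subunit, had 1473 reads in the stranded columns over the 6 libraries, of which 441 (29.9%) were in the column counting either strand. CTBP1, a co-repressor, had 31024 reads in the stranded columns and 13637 (44%) in the column used.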

How the results depend on the processing

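Over all genes, 432 were called higher and 498 lower. These counts were 215 and 255 with edgeR, 1374 and 1359 with a term for the third replicates, 1203 and 1418 with replicates 1 and 2 alone, and from 155 to 1334 and from 208 to 1520 on leaving out each library. Of the 10 genes, 1 was called higher and 1 lower. With edgeR 0 were called higher and 0 lower (2 and 2 at an unadjusted p under 0.05), and without the independent filter 0 higher (2 unadjusted). With the third-replicate term 2 were called higher (JAG2 and RBPJ). With replicates 1 and 2 alone 2 were called higher and 2 lower (JAG1 and NOTCH1 fell). Leaving out a library gave 0 to 2 higher and 1 to 2 lower, and both highest counts came without empty vector replicate 3. Of the wider list, 4 were called higher and 1 lower. The counts were 1 and 0 with edgeR (10 and 6 unadjusted), 2 higher without the independent filter, 8 and 7 with the third-replicate term, 10 lower with replicates 1 and 2 alone, and 0 to 7 higher and 1 to 12 lower on leaving out each library, with 0 higher without any library but empty vector replicate 3, which gave 7 and 12.

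With a replicate block, 886 genes were called higher and 940 lower, 2 of the 10 genes higher (JAG2 and RBPJ, the latter with a DESeq2 adjusted p of 0.00262), and 4 genes of the list lower. Deviations of libraries with the same number correlated at 0.0906, 0.142 and 0.349 across genes. Overexpression replicates 1 and 2 correlated best with empty vector replicates 2 (0.101) and 1 (0.212), so the numbers were not taken as pairs. Empty vector replicate 3 correlated at -0.137 and -0.253 with overexpression replicates 1 and 2. Because deviations within a group cancel, these negative values follow in part from its positive correlation with overexpression replicate 3.

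Log2 fold changes near 0 changed sign: with replicates 1 and 2 alone NOTCH2 stood at -0.005 and NOTCH4 at -0.17, and on leaving out each library NOTCH2 ranged from -0.07 to 0.14, NOTCH3 from -0.19 to 0.19, HES1 from -0.043 to 0.065, NOTCH4 from -0.07 to 0.21 and NOTCH2NLA from -0.309 to 0.023. The NOTCH3 share ranged from -0.285 to 0.238 percentage points. None of these genes was called in any setting. TMM factors, the filter of 10 counts and the stranded columns left the calls of the 10 genes as they were. The causes were not tested. Depth limits NRARP, whose adjusted p was missing in 4 of 14 alternatives.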
